A study of Mus musculus with 9 samples.

Results

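The genes described here carry out antigen presentation by major histocompatibility complex (MHC) class I molecules and form the inducible catalytic core of the immunoproteasome. They are 10 genes chosen by symbol: the heavy chains H2-K1 and H2-D1, the light chain B2m, the peptide loading genes Tap1, Tap2 and Tapbp, the transactivator Nlrc5, and the immunoproteasome subunits Psmb8, Psmb9 and Psmb10. All 10 had a row among the 13708 genes of the table, and all 10 passed the filter on low values. They were measured by bulk RNA-seq, which pools the RNA of all sorted cells of a sample, in macrophages (CD45+ F4/80hi CD11blow cells) sorted from the livers of E15.5 mouse embryos. The study asked what the loss of XPR1, a phosphate exporter of the plasma membrane, does to fetal liver macrophages. The comparison is between 5 Mrc1Cre Xpr1fl/fl and 4 Xpr1fl/fl samples, each library made from 45 ng of total RNA.

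Both genotypes are homozygous for an Xpr1 allele whose exon 2 is flanked by loxP sites, and the controls carry no Cre. In Mrc1Cre Xpr1fl/fl embryos a codon-improved Cre and a yellow fluorescent protein, parted by a self-cleaving peptide, are expressed from the Mrc1 locus. So 1 Mrc1 allele is modified there and unmodified in the controls. Mrc1 is also used by endothelial cells of the liver, which therefore lose the floxed exon too. Xpr1 was at 1073.7 to 1285.3 normalized counts in the 5 Mrc1Cre Xpr1fl/fl samples and at 1780.9 to 2239.2 in the 4 controls, and these ranges did not overlap. Of the 14 macrophage markers checked, all had a row, 6 were lower and 1 was higher in Mrc1Cre Xpr1fl/fl samples, and their sum was 0.79 times that of controls. Adgre1, which encodes the F4/80 used in the sort, was at a mean of 46581.0 and 46008.1 normalized counts in Mrc1Cre Xpr1fl/fl samples and controls.

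MHC class I molecules display peptides from proteins made inside the cell to CD8+ T cells and are also read by natural killer cells. The peptides are cut by the proteasome, pumped into the endoplasmic reticulum by the TAP transporter, and loaded onto a heavy chain paired with beta-2 microglobulin. Interferons raise the transcription of most genes of this pathway, and in the immunoproteasome they replace the 3 catalytic subunits of the constitutive particle (encoded by Psmb5, Psmb6 and Psmb7) with those encoded by Psmb8, Psmb9 and Psmb10. NLRC5 switches on class I genes much as CIITA, its relative, switches on class II genes.

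The promoters of these genes are known to hold a few short elements: the interferon-stimulated response element, the gamma-activated site, sites for NF-kB, and the X2 and Y boxes on which NLRC5 and its partners assemble. To show the DNA that the expression values belong to, a window of 300 bases was taken for each gene from 250 bases before to 50 bases after the start of its canonical transcript in GRCm39, and 5 motifs were searched on both strands. GAAANNGAAA, the core of the interferon-stimulated response element, was in 3.76% of 13045 promoters and in 1 of the 10 genes, Nlrc5. TTCNNNGAA, the gamma-activated site, was in 7.7% of promoters and in H2-D1 and Psmb8. GGGNNTTNCC, an NF-kB site, was in 5.23% of promoters and in H2-K1. TGACG, the centre of the X2 box, was in 28.8% of promoters and in H2-K1 and Psmb8. ATTGG, the Y box, was in 39.8% of promoters and in H2-K1, Tap1 and Tapbp. The first 3 motifs gave the windows below, each with 30 bases on the strand of its gene and the motif in capitals. The windows of H2-Q6 and of H2-T10, class I genes described further on, are shown with them as examples. Other class I genes described there also held these motifs. These were H2-T22 and H2-T23 (interferon-stimulated response element), H2-M3 (gamma-activated site), and H2-Q4 and H2-Q7 (NF-kB site). Of these, H2-T23 was not called (log2 fold change 0.13) and the others were higher. Whether a match goes with higher expression was not tested.
Nlrc5 (interferon-stimulated response element, reverse strand, chr8:95161011-95161040): cagtggccacTTTCAGTTTCcacagagcgc
H2-T10 (interferon-stimulated response element, reverse strand, chr17:36432523-36432552): attggcttagTTTCACTTTCgaatccccaa
H2-K1 (NF-kB site, chr17:34219413-34219442): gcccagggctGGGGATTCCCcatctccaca
H2-Q6 (NF-kB site, chr17:35643643-35643672): gcccatggctGGGGATTCCCcatctcccca
H2-D1 (gamma-activated site, chr17:35481648-35481677): cgccattgtaTTCCCGGAAgtgacctttct
Psmb8 (gamma-activated site, chr17:34416690-34416719): gggttgaggaTTCAAGGAAggagcgcgcag

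The match in Nlrc5 began 2 bases after the start of the transcript and the match in H2-K1 111 bases before it. The same letters as in H2-T10 lay before the start of its neighbour H2-T22, 175 bases upstream. Each match is only a stretch of letters, and binding was not measured in these samples. Variants of these letters and elements outside the window were not searched, so a gene without a match may still hold the element.

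Class I presentation genes were higher in macrophages of Mrc1Cre Xpr1fl/fl embryos than in those of controls. By limma with Benjamini-Hochberg adjustment over 13594 genes, 9 of the 10 genes were higher and 0 were lower. Of all genes tested 21.5% were higher and 21.6% were lower. The 10 genes had a median log2 fold change of 0.59, against 0.00 over all genes tested. For the same 9 genes every Mrc1Cre Xpr1fl/fl sample was above every control, which held for 16.6% of all genes. The exception was Psmb10. Because these are bulk samples, more cells of a type and more RNA per cell cannot be told apart. The paper reports that the sorted cells included ones high and low for TIM4, the product of Timd4. It found the low ones in Mrc1Cre Xpr1fl/fl embryos, beside high ones as seen in controls. Their part in these values was not tested.

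The column names of the table carry 3 dates, whose meaning the sources used here do not give. The earliest date holds Mrc1Cre Xpr1fl/fl sample 5 and controls 1 to 3, the middle date holds control 4, and the latest date holds Mrc1Cre Xpr1fl/fl samples 1 to 4, so the dates largely follow the genotypes. With the date as a term, the genotypes are compared through the samples of the earliest date alone, 1 sample against 3. Counts of calls in that fit, here and further on, are to be read beside its own shares over all genes, which follow. In that fit 8 of the 10 genes were higher and 0 lower, against 4.24% and 4.54% of all genes, and Tap2 was the gene that was lost.

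**Figure D1:**
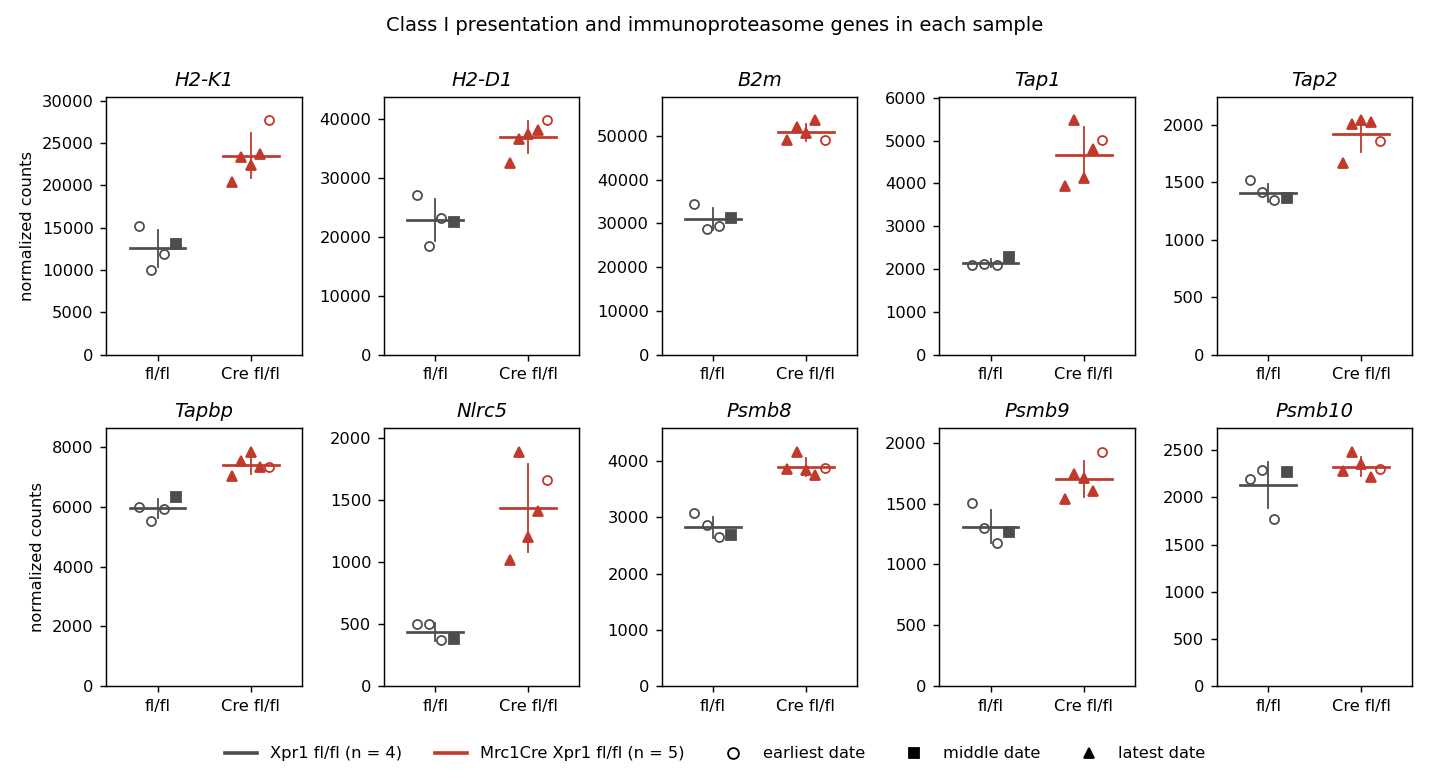
Normalized counts (linear axis from 0) of the 10 genes in each of 4 Xpr1fl/fl samples (grey) and 5 Mrc1Cre Xpr1fl/fl samples (red). Each symbol is a sample and its shape the date in the column name, horizontal bars are means and vertical bars ±1 SD. The genotypes are separate in 9 panels and overlap in that of Psmb10, where the Mrc1Cre Xpr1fl/fl samples lie at 2213.6 to 2484.4 and the controls at 1765.9 to 2290.8.

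H2-K1 and H2-D1 encode the classical heavy chains of the K and D loci, which bind the peptide. Both lie on chromosome 17 of GRCm39, H2-K1 (ENSMUSG00000061232) at 34214987 to 34219321 on the minus strand and H2-D1 (ENSMUSG00000073411) at 35481691 to 35486475 on the plus strand. H2-K1 measured 20407.8, 23373.0, 22433.7, 23741.8 and 27725.7 normalized counts in Mrc1Cre Xpr1fl/fl samples 1 to 5 and 15247.2, 9956.9, 11927.6 and 13088.5 in controls 1 to 4. The lowest Mrc1Cre Xpr1fl/fl sample was therefore above the highest control. The log2 fold change of H2-K1 was 0.92 (SE 0.12, adjusted p = 0.000136). H2-D1 measured 32520.2, 36602.8, 37446.5, 38158.5 and 39835.0 normalized counts against 27069.0, 18368.5, 23235.3 and 22508.3, again without overlap. Its log2 fold change was 0.71 (SE 0.10, adjusted p = 0.000262). For both genes the highest value was that of Mrc1Cre Xpr1fl/fl sample 5, which shares its date with 3 of the controls, and the highest control was control 1. The controls spread widely, with a coefficient of variation of 17.6% for H2-K1 and 15.6% for H2-D1. That of the other 8 genes was 4.09% to 16.4%, with Nlrc5 the highest, so H2-D1 lay within their range.

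B2m encodes beta-2 microglobulin, the light chain without which most class I molecules do not reach the surface. It lies on chromosome 2 (ENSMUSG00000060802, 121977957 to 121983594, plus strand), away from the MHC. B2m measured 49141.2, 52039.1, 50608.2, 53638.0 and 49104.5 normalized counts in Mrc1Cre Xpr1fl/fl samples and 34415.0, 28815.6, 29489.9 and 31312.5 in controls. Its log2 fold change of 0.72 (SE 0.06, adjusted p = 2.02e-05) had a smaller standard error than those of the heavy chains, and its coefficient of variation was 3.83% in Mrc1Cre Xpr1fl/fl samples and 8.08% in controls.

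The heavy and light chains could be set against each other within each sample, which removes the scaling of the sample. Over 9 such log2 ratios between partner genes, differences were tested by a two-sided exact permutation test of the samples, whose smallest p is 0.00794 with 126 arrangements, and adjusted over the 9. The log2 ratio of H2-D1 to B2m was −0.47 ± 0.11 (SD, n = 5) in Mrc1Cre Xpr1fl/fl samples and −0.45 ± 0.14 (SD, n = 4) in controls, a difference of −0.01 (exact permutation p = 0.905). That of H2-K1 to B2m was −1.12 ± 0.17 and −1.32 ± 0.15, a difference of 0.20 that did not pass the threshold (exact permutation p = 0.0794, adjusted p = 0.102) and that was 0.12 without Mrc1Cre Xpr1fl/fl sample 5 and 0.13 without control 2. The ratio of H2-K1 to H2-D1 was higher in every Mrc1Cre Xpr1fl/fl sample, at −0.74 to −0.52 against −0.96 to −0.78, with a difference of 0.21 (exact permutation p = 0.00794, adjusted p = 0.0143). Part of the reads of these heavy chains could come from either gene: of the stretches of 31 bases in the canonical H2-K1 transcript, 45.1% occur in a transcript of another gene and 16.9% in H2-D1, and of those of H2-D1 54.0% occur elsewhere and 12.8% in H2-K1. The share was 0.0% for B2m and for Psmb10.

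Tap1 and Tap2 encode the 2 chains of the TAP transporter, and Tapbp encodes tapasin, which holds the empty heavy chain at the transporter. Tap1 had the largest log2 fold change of the 10 genes after Nlrc5. Tap1 (ENSMUSG00000037321, chromosome 17, 34405996 to 34416199, plus strand) measured 3931.0, 5481.4, 4130.6, 4806.9 and 5006.0 normalized counts in Mrc1Cre Xpr1fl/fl samples and 2089.3, 2116.9, 2085.3 and 2270.1 in controls. The controls lay close together, and the mean of 4671.2 ± 637.8 (SD, n = 5) was 2.18 times theirs of 2140.4 ± 87.6 (SD, n = 4). The log2 fold change was 1.12 (SE 0.09, adjusted p = 1.17e-05).

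Tap2 (ENSMUSG00000024339, 34422501 to 34435829, plus strand) differed less than its partner. Tap2 measured 1668.7, 2006.6, 2039.7, 2023.9 and 1854.8 normalized counts against 1516.5, 1411.2, 1341.9 and 1365.0, with a log2 fold change of 0.44 (SE 0.07, adjusted p = 0.000527). With the date as a term the fold change was 0.38 and no longer passed the threshold (adjusted p = 0.0902). The log2 ratio of Tap2 to Tap1 was −1.45 to −1.02 in Mrc1Cre Xpr1fl/fl samples and −0.73 to −0.46 in controls, without overlap, so that the excess of Tap1 over Tap2 was larger in Mrc1Cre Xpr1fl/fl samples (difference −0.67, exact permutation p = 0.00794, adjusted p = 0.0143). Tapbp (ENSMUSG00000024308, 34134873 to 34148267, plus strand) measured 7029.5, 7539.1, 7858.5, 7339.5 and 7330.4 normalized counts against 5993.1, 5534.2, 5942.6 and 6342.0. Its log2 fold change was 0.32 (SE 0.05, adjusted p = 0.000662). Of its stretches of 31 bases 37.2% are shared with other genes, most of them with Gm19412 (27.2%). Zbtb22 lies on the same strand inside the span of Tapbp over 3422 bp but is not among the genes that share most. It had a log2 fold change of −0.06 (adjusted p = 0.514).

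Nlrc5 had the largest fold change of the 10 genes and the lowest level. NLRC5 is the coactivator that drives H2-K1, H2-D1, B2m, Tap1 and Psmb9 in lymphocytes and macrophages. Nlrc5 (ENSMUSG00000074151, chromosome 8, 95160984 to 95253900, plus strand) measured 1015.3, 1891.8, 1198.9, 1410.8 and 1665.0 normalized counts in Mrc1Cre Xpr1fl/fl samples and 501.4, 503.2, 371.6 and 383.6 in controls. The lowest Mrc1Cre Xpr1fl/fl sample was above the highest control, and the means of 1436.3 ± 351.4 (SD, n = 5) and 439.9 ± 72.2 (SD, n = 4) differed 3.26-fold. Its log2 fold change was 1.68 (SE 0.17, adjusted p = 4.11e-05), the 431st largest in size of the 13594 genes tested. Nlrc5 also varied most among the Mrc1Cre Xpr1fl/fl samples, with a coefficient of variation of 24.5% against 3.83% to 13.7% for the other 9 genes.

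The immunoproteasome subunits differed unequally. Psmb8 encodes the beta5i subunit, which cuts after hydrophobic residues, Psmb9 the beta1i subunit and Psmb10 the beta2i subunit. Psmb8 (ENSMUSG00000024338, chromosome 17, 34416690 to 34420428, plus strand) measured 3867.5, 4169.2, 3846.6, 3744.1 and 3883.2 normalized counts in Mrc1Cre Xpr1fl/fl samples and 3071.8, 2866.4, 2655.8 and 2685.6 in controls. The log2 fold change was 0.47 (SE 0.06, adjusted p = 9.12e-05). Psmb9 (ENSMUSG00000096727, 34400960 to 34406738, minus strand) measured 1540.9, 1746.6, 1708.0, 1601.5 and 1927.5 against 1502.3, 1297.6, 1177.8 and 1266.6. These ranges came close, control 1 lying just under Mrc1Cre Xpr1fl/fl sample 1, and the log2 fold change was 0.38 (SE 0.08, adjusted p = 0.00372).

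Psmb10 lies apart from the others, on the minus strand of chromosome 8 (ENSMUSG00000031897, 106662362 to 106665077). Psmb10 measured 2276.4, 2484.4, 2347.8, 2213.6 and 2303.5 normalized counts in Mrc1Cre Xpr1fl/fl samples and 2197.5, 2290.8, 1765.9 and 2267.3 in controls. The genotypes overlapped, with 3 Mrc1Cre Xpr1fl/fl samples above every control, and control 3 was lower than all other samples. The log2 fold change of 0.13 (SE 0.08, 95% interval −0.04 to 0.30) did not pass the threshold (adjusted p = 0.185). It was 0.05 with samples scaled to the 75th percentile, with quantile normalization or without control 3.

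Each inducible subunit takes the place of a constitutive partner, and these partners did not pass the test. Psmb5 had a log2 fold change of 0.07 (adjusted p = 0.335), Psmb6 of 0.13 (adjusted p = 0.103) and Psmb7 of 0.12 (adjusted p = 0.121). The log2 ratio of Psmb8 to Psmb5 was 0.69 to 0.89 in Mrc1Cre Xpr1fl/fl samples and 0.32 to 0.42 in controls, a difference of 0.40 without overlap (exact permutation p = 0.00794, adjusted p = 0.0143). The ratio of Psmb9 to Psmb6 differed by 0.25 (exact permutation p = 0.0238, adjusted p = 0.0357), with Mrc1Cre Xpr1fl/fl sample 1, at −1.24, inside the range of the controls of −1.29 to −1.19. The ratio of Psmb10 to Psmb7 differed by 0.02 (exact permutation p = 0.865), at −0.75 ± 0.06 (SD, n = 5) against −0.77 ± 0.15 (SD, n = 4). Among the samples of the earliest date alone, the ratios of the Mrc1Cre Xpr1fl/fl sample to the 3 controls differed by 0.32, 0.43 and 0.01 in that order. Psmb5 shares 57.9% of its stretches of 31 bases with other genes, most with the predicted gene Gm3375.

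**Figure D2:**
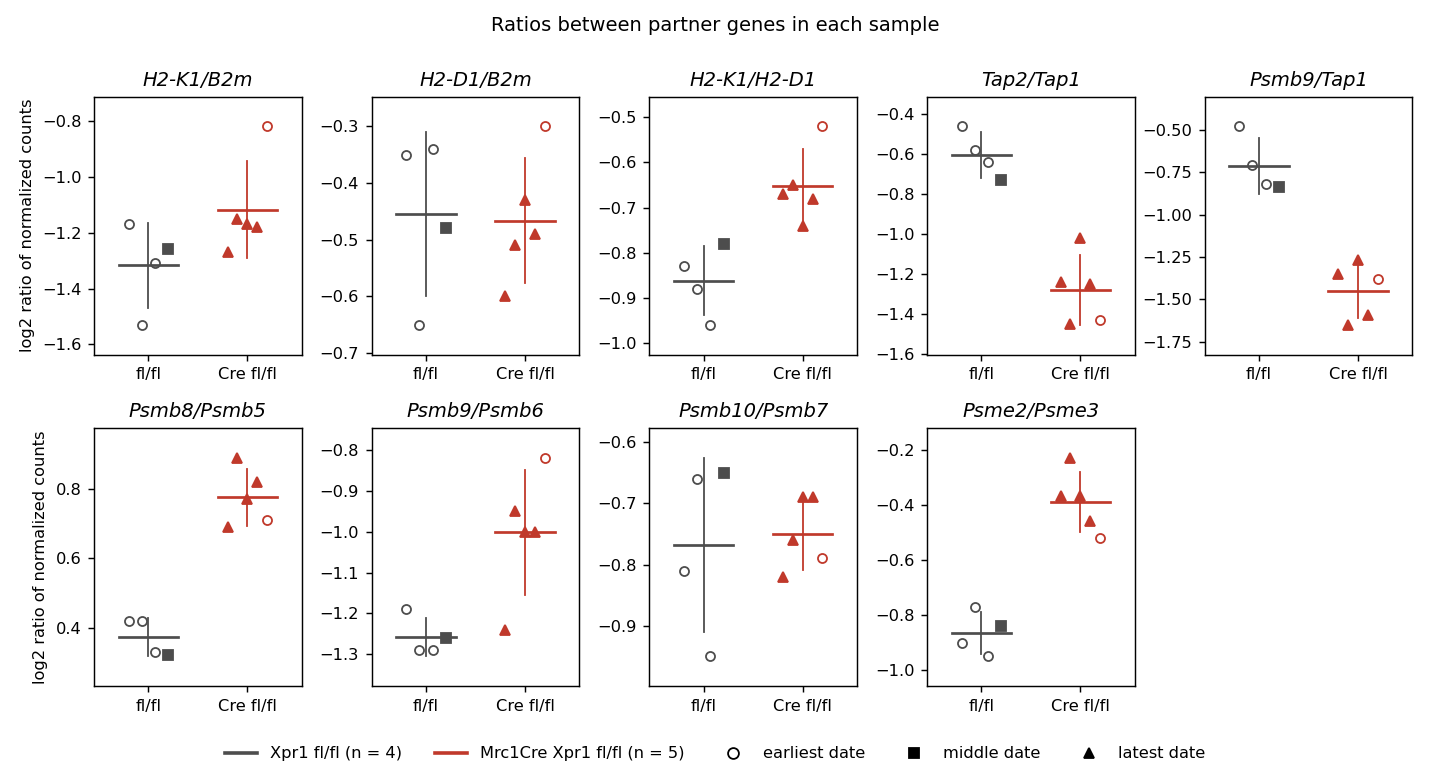
Log2 ratio of the normalized counts of 9 pairs of partner genes in each sample (grey, 4 Xpr1fl/fl; red, 5 Mrc1Cre Xpr1fl/fl; each panel has its own axis, which does not start at 0). Horizontal bars are means, vertical bars ±1 SD and symbol shapes the dates. The genotypes are separate for H2-K1/H2-D1, Tap2/Tap1, Psmb9/Tap1, Psmb8/Psmb5 and Psme2/Psme3, and overlap for the other 4 pairs.

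Tap1 and Psmb9 are read from opposite strands and overlap by 743 bp at their starts, so that a single stretch of DNA lies between their coding parts. Their differences were not equal. The log2 ratio of Psmb9 to Tap1 was −1.65 to −1.27 in Mrc1Cre Xpr1fl/fl samples and −0.84 to −0.48 in controls (difference −0.74, exact permutation p = 0.00794, adjusted p = 0.0143). Because of the overlap, 36.7% of the stretches of 31 bases of Psmb9 also occur in Tap1, and 10.9% of those of Tap1 in Psmb9. Whether the authors' quantification used the strand of the reads is not given in the sources used here.

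Levels between genes were compared per kilobase of the canonical transcript. In controls the order was B2m (28552.7 normalized counts per kb), H2-D1 (10767.7), H2-K1 (7754.8), Tapbp (1999.0), Psmb8 (1656.8), Psmb10 (1623.8), Psmb9 (969.0), Tap1 (689.3), Tap2 (354.3) and Nlrc5 (58.1). Neighbours in that order with overlapping ranges were H2-D1 and H2-K1, and Psmb8 and Psmb10. B2m was above 99.7% of the genes of the whole table that have a canonical transcript, and Nlrc5 above 28.4%. In Mrc1Cre Xpr1fl/fl samples Tap1, at 1504.4 normalized counts per kb, stood before Psmb9, at 1260.1, although their ranges overlapped, and Nlrc5 reached 189.5 and remained the lowest.

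Deviations of the 10 genes from the mean of their genotype lay mostly on 1 side in some samples and on both sides in others. Mrc1Cre Xpr1fl/fl sample 1 was below the mean of its genotype for 10 of 10 genes, with a median deviation of −0.16 on the log2 scale. Control 1 was above its genotype's mean for 9 of 10 genes and control 3 below it for 9 of 10. Mrc1Cre Xpr1fl/fl sample 2 was above its genotype's mean for 8 of 10 genes, and the other 5 samples were above theirs for 4 to 6 genes. Over the 9 samples, the genes whose log2 values followed the mean standardised value of the 10 genes most closely were Serpina3g (Pearson r = 0.987), Ifi27l2a (0.985), Ggct (0.984), H2-T22 (0.983) and Midn (0.982). These correlations contain the difference between the genotypes, and 598 genes had an r above 0.9. In the deviations from the genotype means only 9 genes did, led by Cd46 (r = 0.963), Ccdc32 (0.954) and Tmem68 (0.948). Their own log2 fold changes between the genotypes were −0.05, −0.22 and 0.33 in that order. Among 13594 genes and 9 samples, some correlations of this size can arise by chance, and how many was not tested.

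Beside H2-K1 and H2-D1, 14 class I genes were tested: those of the H2-Q, H2-T and H2-M families, class I-like genes and the pseudogene H2-K2. Of these 8 were higher and 3 lower, against 21.5% and 21.6% of all genes tested. The median log2 fold change of the 14 was 0.42. H2-Q6 and H2-Q7, which encode the nonclassical molecule Qa-2, had the highest log2 fold changes of these genes. H2-Q6 measured 173.7, 196.2, 189.8, 218.4 and 288.4 normalized counts in Mrc1Cre Xpr1fl/fl samples and 45.9, 28.2, 40.9 and 55.2 in controls (log2 fold change 2.31, SE 0.21, adjusted p = 2.16e-05). H2-Q7 measured 421.9, 641.3, 463.0, 620.1 and 752.6 against 178.8, 111.9, 146.3 and 174.1 (log2 fold change 1.91, SE 0.19, adjusted p = 3.41e-05). No Mrc1Cre Xpr1fl/fl sample of either gene came within the range of the controls. H2-T10 had a log2 fold change of 1.60 (adjusted p = 0.000105), H2-Q4 of 1.38 (adjusted p = 1.26e-05) and H2-T22 of 0.76 (adjusted p = 1.82e-05).

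Reads of these genes are shared, since 57.8% of the stretches of 31 bases of H2-Q6, 60.1% of H2-Q7 and 59.4% of H2-T10 occur in other genes. The same held for 63.0% of those of H2-Q4, 62.1% of H2-T22 and 56.7% of H2-T23. The value of any 1 of these genes is uncertain for that reason. H2-M3, which presents formylated peptides and shares 4.6%, rose by a log2 fold change of 0.33 (adjusted p = 0.00354), and Cd1d1, which presents lipids, by 0.52 (adjusted p = 0.000755). H2-T23, which encodes the nonclassical molecule Qa-1, had a log2 fold change of 0.13 that did not pass the threshold (adjusted p = 0.171). The lower genes were Fcgrt, which encodes the neonatal Fc receptor (log2 fold change −0.82, adjusted p = 4.89e-05), H2-Q10, a secreted class I molecule of hepatocytes (−0.72, adjusted p = 0.00971), and Mr1, which presents vitamin B metabolites (−0.62, adjusted p = 0.00274). When the date was a term, 6 of the 8 higher genes kept their call, H2-M3 (adjusted p = 0.0782) and H2-T24 (adjusted p = 0.266) losing it, and of the 3 lower genes Fcgrt kept its call. Hepatocyte markers were lower beside H2-Q10, at a summed 35350.2 to 45590.1 normalized counts in Mrc1Cre Xpr1fl/fl samples and 59546.3 to 102763.0 in controls, and their part in its value was not tested.

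**Figure D3:**
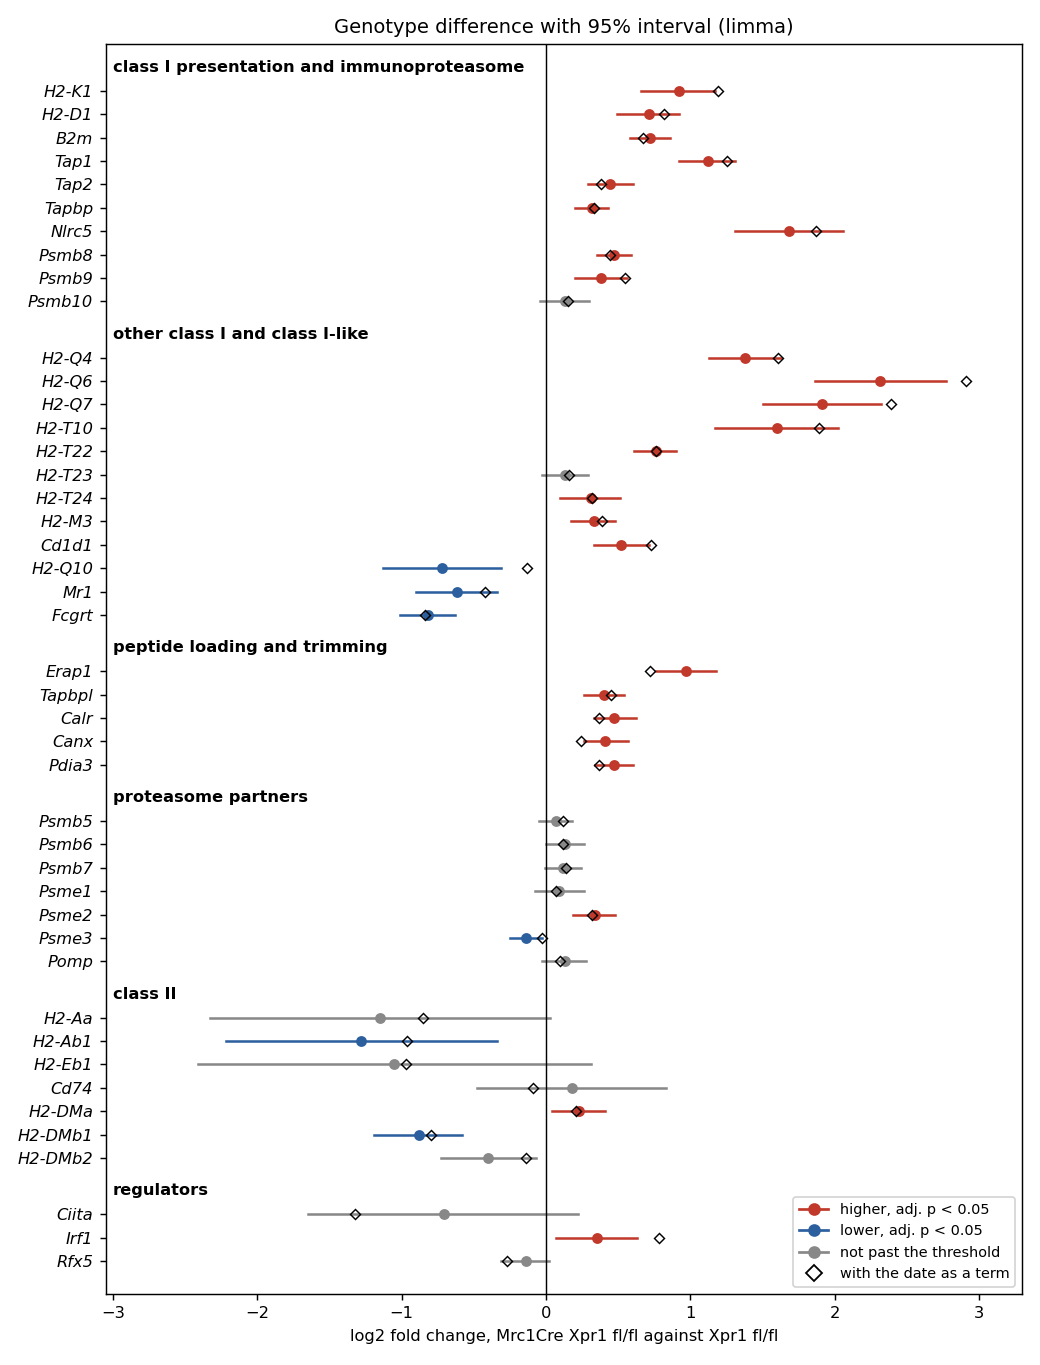
Log2 fold change of Mrc1Cre Xpr1fl/fl (n = 5) against Xpr1fl/fl (n = 4) samples for the 10 genes and for related genes, from limma, with 95% intervals as horizontal lines. Open diamonds give the fold change in the fit that includes the date. Among the first 10 genes, 9 are red (higher, adjusted p under 0.05) and Psmb10 is grey, with its interval across 0, while the class II genes H2-Ab1 and H2-DMb1 lie to the left of 0.

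Genes that load or trim peptides were also higher in part. Of 16 tested, 12 were higher and 0 lower, against 21.5% and 21.6% of all genes tested. Their median log2 fold change was 0.37. Erap1, which encodes the aminopeptidase that trims peptides in the endoplasmic reticulum, had 6528.7 ± 659.3 (SD, n = 5) against 3336.8 ± 398.0 (SD, n = 4) normalized counts, and its log2 fold change was 0.97 (adjusted p = 3.43e-05). Tapbpl, which encodes the peptide editor TAPBPR, had one of 0.40 (adjusted p = 0.000583). The chaperones of the loading complex are general helpers of protein folding. Calr (calreticulin) and Pdia3 (ERp57) each had a log2 fold change of 0.47 (adjusted p = 0.000228 and 0.000127), and Canx (calnexin) of 0.41 (adjusted p = 0.000868). Uggt1, which marks misfolded glycoproteins, and Lnpep, which trims peptides in endosomes, had log2 fold changes of 0.68 and 0.67. When the date was added to the fit, 5 of the 12 passed the threshold (Erap1, Uggt1, Sec61a1, Tapbpl and Pdia3).

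Differences in the rest of the proteasome were small. For its lists, the shares over all genes tested were 21.5% higher and 21.6% lower. Of 12 other 20S core genes tested, Psma5 was higher (log2 fold change 0.23, adjusted p = 0.00458) and Psma8, a subunit known from the testis, was lower from a low level (−1.02, adjusted p = 0.000288). Of 22 genes of the 19S cap, which binds ubiquitinated proteins, 12 were higher and 0 lower, with a median log2 fold change of 0.18. That count fell to 4 when samples were scaled to the 75th percentile, and to 3 with quantile normalization. Psmd1 (0.31, adjusted p = 0.000953), Psmd11 (0.28, adjusted p = 0.00118) and Psmd2 (0.27, adjusted p = 0.00142) led them.

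Of 10 genes for proteasome activators, an inhibitor and assembly factors, 3 were higher and 1 lower, and none of these 4 calls held when the date was added to the fit. Psme1 and Psme2 encode the PA28 alpha and beta subunits, which open the core and are induced with the immunoproteasome. Psme2 measured 4391.6, 4504.9, 4081.4, 3641.4 and 3991.2 normalized counts in Mrc1Cre Xpr1fl/fl samples and 3121.4, 3393.3, 3070.7 and 3465.9 in controls (log2 fold change 0.34, adjusted p = 0.00252). Psme1 had a log2 fold change of 0.09 that did not pass (adjusted p = 0.389). Psme3, which encodes the nuclear PA28 gamma, was lower by a small margin (−0.14, adjusted p = 0.0465), and the count of lower genes among these 10 was 0 in 7 of the 9 fits that left out 1 sample. The log2 ratio of Psme2 to Psme3 was −0.52 to −0.23 against −0.95 to −0.77, a difference of 0.47 (exact permutation p = 0.00794, adjusted p = 0.0143). Psme4, which encodes the activator PA200, had a log2 fold change of 0.51 (adjusted p = 0.000332). Pomp, the chaperone of proteasome assembly, had one of 0.13 (adjusted p = 0.185). Psme2 shares 73.8% of its stretches of 31 bases with other genes, 66.1% with its retrogene copy Psme2b.

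Among 18 genes that control class I transcription, 7 were higher and 3 lower, against 21.5% and 21.6% of all genes tested. Their median log2 fold change was 0.08. That count of 7 fell to 2 when samples were scaled to the 75th percentile or by quantile normalization. Stat2, a signal transducer of the type I interferon receptor, was at a mean of 3995.4 ± 825.1 (SD, n = 5) and 2289.3 ± 499.1 (SD, n = 4) normalized counts, and the genotypes overlapped (log2 fold change 0.80, SE 0.17, adjusted p = 0.00273). Irf1, the interferon-regulated activator that binds class I and Psmb9 promoters, had a log2 fold change of 0.35 (adjusted p = 0.0444), and Nfkb1 of 0.31 (adjusted p = 0.000902). No subunit of the RFX complex, on which NLRC5 assembles, was higher. Rfxank was lower (−0.40, adjusted p = 0.00392), and Rfx5 had a log2 fold change of −0.14 (adjusted p = 0.153). Of the 7, Irf1 and Nfkb1 also passed when the date was added to the fit.

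The class II pathway presents peptides from outside the cell. Of 8 of its genes tested, 1 was higher and 2 lower, against 21.5% and 21.6% of all genes tested. Their median log2 fold change was −0.64. H2-Ab1 measured 62.5, 55.9, 37.5, 50.8 and 99.1 normalized counts in Mrc1Cre Xpr1fl/fl samples and 151.1, 138.9, 342.9 and 56.8 in controls, and control 4 lay among the Mrc1Cre Xpr1fl/fl samples (log2 fold change −1.28, adjusted p = 0.0319). H2-DMb1, part of the class II peptide editor, had a log2 fold change of −0.88 (adjusted p = 0.000520), and H2-DMa, the other chain of that editor, of 0.23 (adjusted p = 0.0468). None of these 3 calls held with the date as a term. Cd74, the invariant chain, measured 496.7 to 735.6 normalized counts in Mrc1Cre Xpr1fl/fl samples and 267.1 to 1038.5 in controls (log2 fold change 0.18, adjusted p = 0.669). Ciita, the class II counterpart of Nlrc5, was at a mean of 19.6 and 33.2 normalized counts (log2 fold change −0.71, adjusted p = 0.198).

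Of the 10 genes, 7 lie within 1.35 Mb of chromosome 17, from Tapbp to H2-D1, and Psmb9, Tap1, Psmb8 and Tap2 lie side by side within 34.9 kb. Calls among the genes between and beside them went both ways, as over all genes tested (21.5% higher and 21.6% lower). From Tapbp to H2-D1, 71 other genes were tested, of which 12 were higher and 11 lower, with a median log2 fold change of −0.07. Within 50 kb of any of the 10 genes, 33 others were tested, of which 6 were higher and 8 lower, again with a median of −0.07. Daxx, 309 bp from the annotated span of Tapbp but farther from its canonical start, was higher (0.41, adjusted p = 0.00213). Rgl2, 205 bp from the other end of that span, was lower (−0.21, adjusted p = 0.0406). Beside Nlrc5, Cpne2 was lower (−0.95, adjusted p = 0.000571) and Herpud1 higher (0.33, adjusted p = 0.00305). Lcat, 762 bp from Psmb10, was lower (−1.05, adjusted p = 0.00254). Spg11, near B2m, was higher (0.41, adjusted p = 0.00327).

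**Figure D4:**
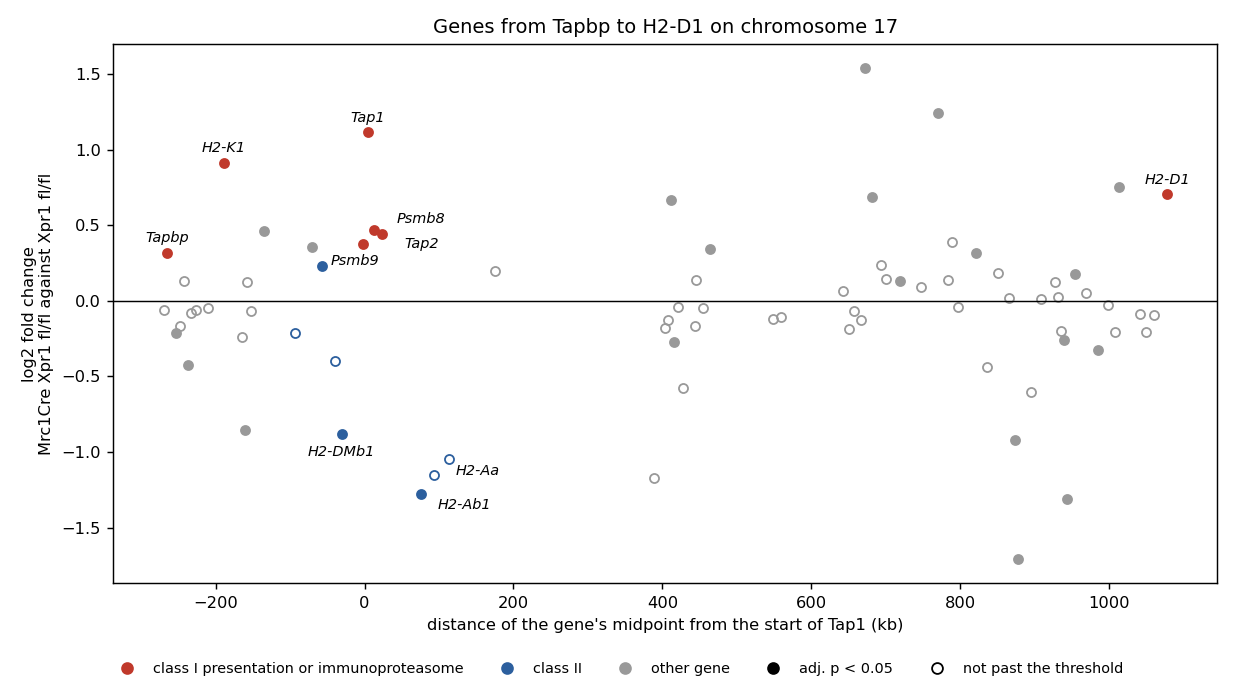
Log2 fold change of Mrc1Cre Xpr1fl/fl (n = 5) against Xpr1fl/fl (n = 4) samples for each gene tested from Tapbp to H2-D1, against the distance of its midpoint from the start of Tap1 in kb. The 7 class I presentation and immunoproteasome genes (red) all lie above 0 and are filled (adjusted p under 0.05), whereas the 71 other genes lie on both sides of 0, with a median of −0.07.

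Markers of other cells differed between the genotypes, and which cells the RNA of these markers came from was not tested. Of all genes tested 21.5% were higher and 21.6% were lower. The summed normalized counts of 12 erythroid markers, the most abundant of which was Hba-a1, were 104800.3 to 316641.5 in Mrc1Cre Xpr1fl/fl samples and 414140.6 to 655538.2 in controls, and all 12 were lower. Of 12 endothelial markers 11 were lower (sum 6791.6 to 8854.8 against 11192.2 to 15367.8), of 10 hepatocyte markers 10 and of 12 granulocyte markers 4. Monocyte markers went both ways, with 2 of 10 higher (Plac8 and Itgam) and 4 lower, and a sum of 10808.5 to 14219.3 against 8989.9 to 12155.0. Of 8 dendritic cell markers 2 were higher (Itgax, with a log2 fold change of 1.77, and Bst2, with 0.34, which interferon also induces) and 4 lower, among them Flt3 and Clec9a, and their sum was 5664.8 to 6472.4 against 4584.3 to 5526.3. Of 12 lymphocyte and natural killer cell markers, Cd3e, Cd3g, Ms4a1, Ncr1, Klrb1c and Prf1 had no row. Of the other 6, Cd79b was higher and 5 were lower, and the sum was 1717.7 to 2016.3 against 1569.4 to 2141.3. Among the 14 macrophage markers Ptprc, which encodes CD45, was higher (log2 fold change 0.85) and 6 were lower, among them Vcam1 (−1.43), Cd5l (−0.90) and Timd4 (−0.85), and the sum was 529494.4 to 628292.0 against 610121.6 to 789452.1. When the date was added to the fit, the median log2 fold change of the erythroid markers was −0.87, against −1.82 without the date. In the same order it was −1.05 against −1.30 for endothelial, −0.57 against −1.10 for hepatocyte and −1.25 against −1.42 for granulocyte markers. For macrophage markers it was −0.07 against −0.12, and for monocyte markers −0.59 against −0.17. Lymphocyte and natural killer cell markers had −1.50 against −1.55, and dendritic cell markers −0.65 against −0.80. Fewer genes of the whole table were called in that fit, which compares 1 sample with 3. The part of these other cells, and of the altered macrophage profile, in the values of the class I genes was not tested.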

How the data were processed

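Bulk RNA-seq of sorted fetal liver macrophages was used. Per the labels and methods, the authors quantified paired-end reads with salmon on GRCm39, used tximport for import and DESeq2 for analysis. The deposited unit is a signal, normalized counts per gene, obtained by the authors from gene counts and DESeq2 normalization factors. Tool versions, the annotation release and the filter that left 13708 genes are not given in the sources used here. Totals of 27987204 to 28309443 normalized counts in Mrc1Cre Xpr1fl/fl samples and 26942921 to 28291555 in controls are set by that normalization. Whole reads could not be recovered, so absolute depth is unknown and no count test was run. All columns were matched to samples by name.

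Genotypes were compared with limma 3.58.1 in R 4.3.3 (lmFit, eBayes with trend) on log2(normalized count + 1), a scale that understates the change of low genes, keeping genes that reached 10 normalized counts in 4 or more samples. P-values were adjusted by Benjamini-Hochberg over 13594 genes, with a threshold of 0.05, and measure the spread between these samples, since nothing in the labels says how many embryos each came from. Ratios were compared by exact permutation tests. Alternatives were pseudocounts of 0.5 and 10, other filters, scalings and limma settings, the replicate number as a block, the date as a term, and leaving out each sample.

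Symbols, coordinates, canonical transcripts and shared stretches of 31 bases came from GENCODE for mouse (release M39, GRCm39) and promoter sequence from the GRCm39 genome. The 10 genes and all lists were chosen with earlier results of these data known. Genes named were the 10, the 3 constitutive subunits, the 3 largest changes past the threshold of each other pathway list with fixed partners (such as Erap1, Canx, Psme1 to Psme3, Rfx5, Ciita and Cd74), neighbours within 50 kb, the genes closest in pattern, and Xpr1. H2-Q4, H2-T22, Cd1d1, Fcgrt, H2-Q10, Mr1, Psma5, Psme4, Nfkb1, Tapbpl, H2-DMa and the marker genes other than Hba-a1 fall in part outside that rule and were named after their values were seen. 1 listed gene is not reported here and was left out of its list. Figures were drawn with matplotlib 3.10.9.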

Additional observations from a re-analysis of the deposited data

Results flagged for a closer look

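Among 102 groups of 4 or 5 samples (the 10 genes, their partner ratios and the related genes, in each genotype), 5 held a sample whose distance from the nearest of the others was a large part of the group's range by Dixon's criterion. Chance alone gives about 1 in 20, or 5.10 of 102. The log2 ratio of H2-K1 to B2m was −0.82 in Mrc1Cre Xpr1fl/fl sample 5 and −1.27 to −1.15 in the other 4. That sample also stood apart for Erap1, with 5399.2 normalized counts against 6598.0 to 7049.1, for Canx, with 27375.5 against 31440.5 to 32371.3, and for Cd1d1, with 1751.2 against 1399.7 to 1469.0. It is the only Mrc1Cre Xpr1fl/fl sample of the earliest date. Cd1d1 was at 1210.3 in control 2 and at 977.4 to 1001.5 in the other 3 controls.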

How the results depend on the processing

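All 10 genes kept their direction under the 20 other fits, and 9 kept their call in each, except Tap2 with the date as a term. Genes called in the whole table fell from 5865 to 1194 with that term. With the date as a term the related lists gave 8 higher (10 without it, H2-K1 and H2-D1 included) and 1 lower class I genes, 5 higher loading genes, 0 higher other 20S genes, 2 higher 19S genes, 0 higher and 0 lower activators, 2 higher and 0 lower regulators, and 0 higher and 0 lower class II genes. Scaling to the 75th percentile gave 0 higher other 20S, 4 higher and 1 lower 19S, 2 higher regulators and 0 higher class II genes. Quantile normalization gave 0 higher other 20S genes, 3 higher 19S genes, 2 higher regulators and 1 lower class II gene. Array weights gave 1 higher constitutive subunit and 3 higher other 20S genes, and limma without trend 0 lower activators and 0 higher class II genes. The cause was not tested.

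Leaving out 1 sample gave 0 to 1 higher constitutive subunits (1 without control 1), 1 to 5 higher other 20S genes (5 without control 1, 2 without Mrc1Cre Xpr1fl/fl sample 4), 0 to 1 lower 19S genes (1 without Mrc1Cre Xpr1fl/fl sample 5), 0 to 1 lower activators (0 except without Mrc1Cre Xpr1fl/fl sample 1 or 5), 3 to 6 higher regulators (3 without control 1, 4 without control 3 or Mrc1Cre Xpr1fl/fl sample 2), 0 to 1 higher class II genes (1 without control 1) and 1 to 4 lower class II genes (4 without control 4, 1 without any other sample but Mrc1Cre Xpr1fl/fl sample 5).

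Without 1 sample the ratios ranged from 0.12 to 0.25 for H2-K1/B2m (0.12 also with quantile normalization and with the replicate block), 0.18 to 0.24 for H2-K1/H2-D1, −0.74 to −0.63 for Tap2/Tap1, −0.78 to −0.66 for Psmb9/Tap1, 0.37 to 0.43 for Psmb8/Psmb5, 0.21 to 0.31 for Psmb9/Psmb6 and 0.43 to 0.51 for Psme2/Psme3. Fewer arrangements exist without 1 sample. Without 1 Mrc1Cre Xpr1fl/fl sample the groups are equal in size and each arrangement has a mirror image. The smallest p is then larger than without 1 control. Without Mrc1Cre Xpr1fl/fl samples 2, 3, 4 or 5 no ratio passed the threshold. The ratios without overlap all had that smallest p, which set their adjusted p of 0.0514 (exact permutation test), so these fits cannot show dependence on a sample. Leaving out any control ended only the call of Psmb9/Psmb6. H2-D1/B2m ranged from −0.08 to 0.02 and turned sign (0.02) without Mrc1Cre Xpr1fl/fl sample 1, control 1 or control 3. Psmb10/Psmb7 ranged from −0.05 to 0.06 and turned sign (−0.05) without control 3. Within the earliest date the differences, with no test, were 0.51 (H2-K1/B2m), 0.14 (H2-D1/B2m), 0.37 (H2-K1/H2-D1), −0.87 (Tap2/Tap1), 0.32 (Psmb8/Psmb5), 0.43 (Psmb9/Psmb6) and 0.35 (Psme2/Psme3).

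Samples with the same number share only that number: their deviations from the genotype means correlated at −0.0333, 0.147, −0.0113 and −0.0313. With the replicate block 6226 genes were called, the 10 genes kept their calls, other 20S genes gave 2 higher, 19S genes 1 lower and class II genes 0 higher and 4 lower, and H2-K1/H2-D1 (0.18, limma fitted to the ratios) no longer passed. Depth is unknown and sets no floor here.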
